A study of Mus musculus with 22 samples.

Results

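The BCL2 family genes described here are 10 of the 55011 genes in a count table of lymph node CD4+ T cells from mice, chosen by name: Bcl2, Bcl2l1, Mcl1, Bcl2a1b, Bax, Bak1, Bcl2l11, Bbc3, Pmaip1 and Bid. All 10 passed the filter on low counts and were tested. In the FOXP3 group, CD4+ T cells of scurfy mice, a C57BL/6 strain without functional Foxp3, carried a lentiviral vector with human FOXP3 and the surface reporter LNGFR (nerve growth factor receptor, truncated). In the WT Treg group, CD4+CD25+ regulatory T cells (Treg) with the CD45.1 allele were transferred instead. In the LNGFR group, scurfy CD4+ T cells carried the reporter vector without FOXP3. Cells of all 3 groups went into scurfy mice conditioned with cyclophosphamide (50 mg/kg) at an age of 10 days, were transferred on day 14, and were supported with human IL-2 at 1000 IU/g, which was given each day for 5 days and weekly after that. Each library came from 1000 lymph node cells sorted on day 50 by LNGFR or by CD45.1. The scurfy genotype in the labels is given for every sample, WT Treg included, and so describes the recipients in that group. Donor mice were 10 days old for both scurfy cell groups, while neither the age of the Treg donors nor the vector's promoter is given by the sources used here.

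Titles name each library by a code and a number, and the 2 libraries with 1 code were added up to 1 replicate, which gave 5 FOXP3 codes (F1, F2, F5, N2, N3), 3 WT Treg codes (E2, G4, L1) and 3 LNGFR codes (G1, G2, G3). Whether codes stand for separate mice is not in the labels, so p-values here reflect differences among codes that could in part be technical. Library totals ran from 332570 to 5453375 counts. In 3 libraries, both of E2 and the second of G1, the gene model Gm10800 took 23.5% to 46.1% of counts, against at most 3.53% elsewhere, and totals were at most 641980. Summed levels of 7 T cell markers were 3293 to 5271 CPM (counts per 1e+06 counts of the scaled library) in FOXP3 codes, 2296 to 5731 CPM in WT Treg codes and 4822 to 6233 CPM in LNGFR codes, with no marker at 0. The mouse Foxp3 row held 162 to 313 CPM in FOXP3 codes, 704 to 1630 CPM in WT Treg codes and 42.7 to 143 CPM in LNGFR codes. Scurfy cells can still make the mutant transcript, and what share of these reads came from the human transgene was not tested. Of 12 B cell markers, whose sum was 8802 CPM in code N3 and 1143 to 2286 CPM in F1, F2, F5 and N2, 1632 to 3740 CPM in WT Treg codes and 1003 to 2211 CPM in LNGFR codes, only Fcrla was at 0, in E2. The transcript of Ighm, the IgM heavy chain, made up much of that sum, with means of 1745 CPM in FOXP3, 2638 CPM in WT Treg and 443 CPM in LNGFR. Sums of 7 plasma cell markers were 326 to 669 CPM in FOXP3 codes, 192 to 434 CPM in WT Treg codes and 564 to 751 CPM in LNGFR codes, so WT Treg lay below LNGFR without overlap. Among them Tnfrsf17 was at 0 in most codes, Mzb1 in E2 and Sdc1 in N2. Xbp1 and Prdm1 made up much of these sums. Xbp1 averaged 239 CPM in FOXP3, 203 CPM in WT Treg and 256 CPM in LNGFR, and Prdm1 95.7, 102 and 88.5 CPM. The sum of 12 cell-cycle genes was 275 CPM in N3 and 1090 to 1678 CPM in F1, F2, F5 and N2, 361 to 743 CPM in WT Treg codes and 271 to 338 CPM in LNGFR codes. Myeloid marker sums stayed at or below 75.1 CPM and CD8 and natural killer marker sums at or below 67.1 CPM in every code.

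BCL2 family proteins decide whether the outer membrane of mitochondria is opened, the step that commits a cell to death by the intrinsic apoptosis pathway. Bax and Bak1 form the pore. Guardian proteins such as Bcl2 and Mcl1 hold them in check, and BH3-only proteins such as Bim, the product of Bcl2l11, bind the guardians and so free the pore formers. Treg depend on cytokine signals, IL-2 among them, for survival, and in mouse Treg the opposition of Mcl1 to Bim is known to set cell number. The transcripts are reported by these roles.

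Bcl2, the guardian first found at a lymphoma translocation, had the largest difference from LNGFR of the 10 genes in both other groups. Bcl2 had 267, 185, 139, 145 and 262 CPM in FOXP3 codes F1, F2, F5, N2 and N3. WT Treg codes E2, G4 and L1 had 68.4, 162 and 126 CPM. LNGFR codes G1, G2 and G3 had 467, 723 and 466 CPM. The lowest LNGFR code lay above every FOXP3 and every WT Treg code, while the FOXP3 and WT Treg codes overlapped. In sorted bulk cells, fewer cells with a transcript and less of it per cell cannot be told apart. Means were 200 ± 61.9 CPM in FOXP3 (SD, n = 5), 119 ± 47.1 CPM in WT Treg (n = 3) and 552 ± 148 CPM in LNGFR (n = 3). In the quasi-likelihood test of edgeR, with p-values adjusted over 15462 genes, Bcl2 was lower in WT Treg than in LNGFR, with a log2 fold change of -2.20 ± 0.41 (SE) and an adjusted p of 0.0185. In FOXP3 against LNGFR the log2 fold change was -1.47 ± 0.34 and the adjusted p of 0.0839 missed the threshold of 0.05. FOXP3 against WT Treg gave 0.74 ± 0.36 with an adjusted p of 0.335.

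The Bcl2 call in WT Treg rested on few codes. Its adjusted p in edgeR was 0.236 without G2, 0.0871 without G3, 0.0823 without G4 and 0.166 without L1, and its log2 fold change stayed between -1.88 and -2.55 in those fits. Fitted on WT Treg and LNGFR alone, Bcl2 had an adjusted p of 0.0951. The FOXP3 difference moved the other way: without N3, the code with the high B cell marker sum, it was -1.60 with an adjusted p of 0.0469 in edgeR, and without the 3 weak libraries it was -1.57 with an adjusted p of 0.0171. Without G2 it was -1.06 with an adjusted p of 0.608. Markers of other cells differed between the same groups. In WT Treg against LNGFR, 1 of 12 B cell markers was above 0 on the log2 fold change scale (Ighm, 2.57, adjusted p 0.0162 in edgeR), the median was -2.16, and for 9 of 12 every WT Treg code lay below every LNGFR code. Cd79a, a chain of the B cell receptor, averaged 22.9 CPM in WT Treg and 255 CPM in LNGFR. Of 6 plasma cell markers tested, 1 was above 0 and the median was -1.63. Jchain, which joins antibody units, averaged 22.0 CPM in WT Treg and 297 CPM in LNGFR, and Mzb1 0.58 CPM in WT Treg and 31.1 CPM in LNGFR. In FOXP3 against LNGFR, 10 of 12 B cell markers were above 0 (median 1.03) and 1 of 6 plasma cell markers was (median -1.25). The part of B cell and plasma cell RNA in these Bcl2 levels was not tested beyond leaving out N3.

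Single libraries gave the same order except for the weak ones. Bcl2 ran from 130 to 279 CPM in 10 FOXP3 libraries, with a median of 188 CPM. It ran from 60.9 to 167 CPM in 6 WT Treg libraries and from 201 to 760 CPM in 6 LNGFR libraries, with medians of 128 and 548 CPM. The LNGFR minimum was the weak second library of G1, with 84 Bcl2 counts, which lay within the FOXP3 range. The 2 libraries of a code differed in Bcl2 by a median of 0.13 on the log2 scale over the 9 codes other than E2 and G1. Bcl2 spans chr1:106538178-106714274 on the minus strand (GRCm38, GENCODE M21), where an antisense gene and gene models overlap it, and 5.69% of its 38-base windows occur in other transcripts, so a part of its counts could be theirs.

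The start of Bcl2 is shown because Bcl2 is the member that was called. The window covers 250 bases before to 50 after the start in RefSeq on GRCm38.p6, read 5′ to 3′ along the gene, at chr1:106714241-106714540 on the minus strand, and 76.0% of its bases are G or C. It holds no match to any of 5 motifs searched on both strands, which were TGTTTAC (forkhead factors, the class of FOXP3), TTCNNNGAA (STAT factors, downstream of IL-2), CACGTG (E-box), TGANTCA (AP-1) and TGACGTCA (CRE). Among 32851 such windows of the mouse genome, 3.65% held the forkhead motif, 8.3% the STAT motif, 7.15% the E-box, 7.81% the AP-1 motif and 1.79% the CRE.
Bcl2 start: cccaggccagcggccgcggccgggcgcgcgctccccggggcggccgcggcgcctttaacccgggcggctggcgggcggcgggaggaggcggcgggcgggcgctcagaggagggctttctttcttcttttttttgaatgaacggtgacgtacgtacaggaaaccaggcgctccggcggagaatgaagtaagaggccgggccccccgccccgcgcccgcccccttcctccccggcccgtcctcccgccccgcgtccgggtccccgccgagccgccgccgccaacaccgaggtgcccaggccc

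**Figure D1:**
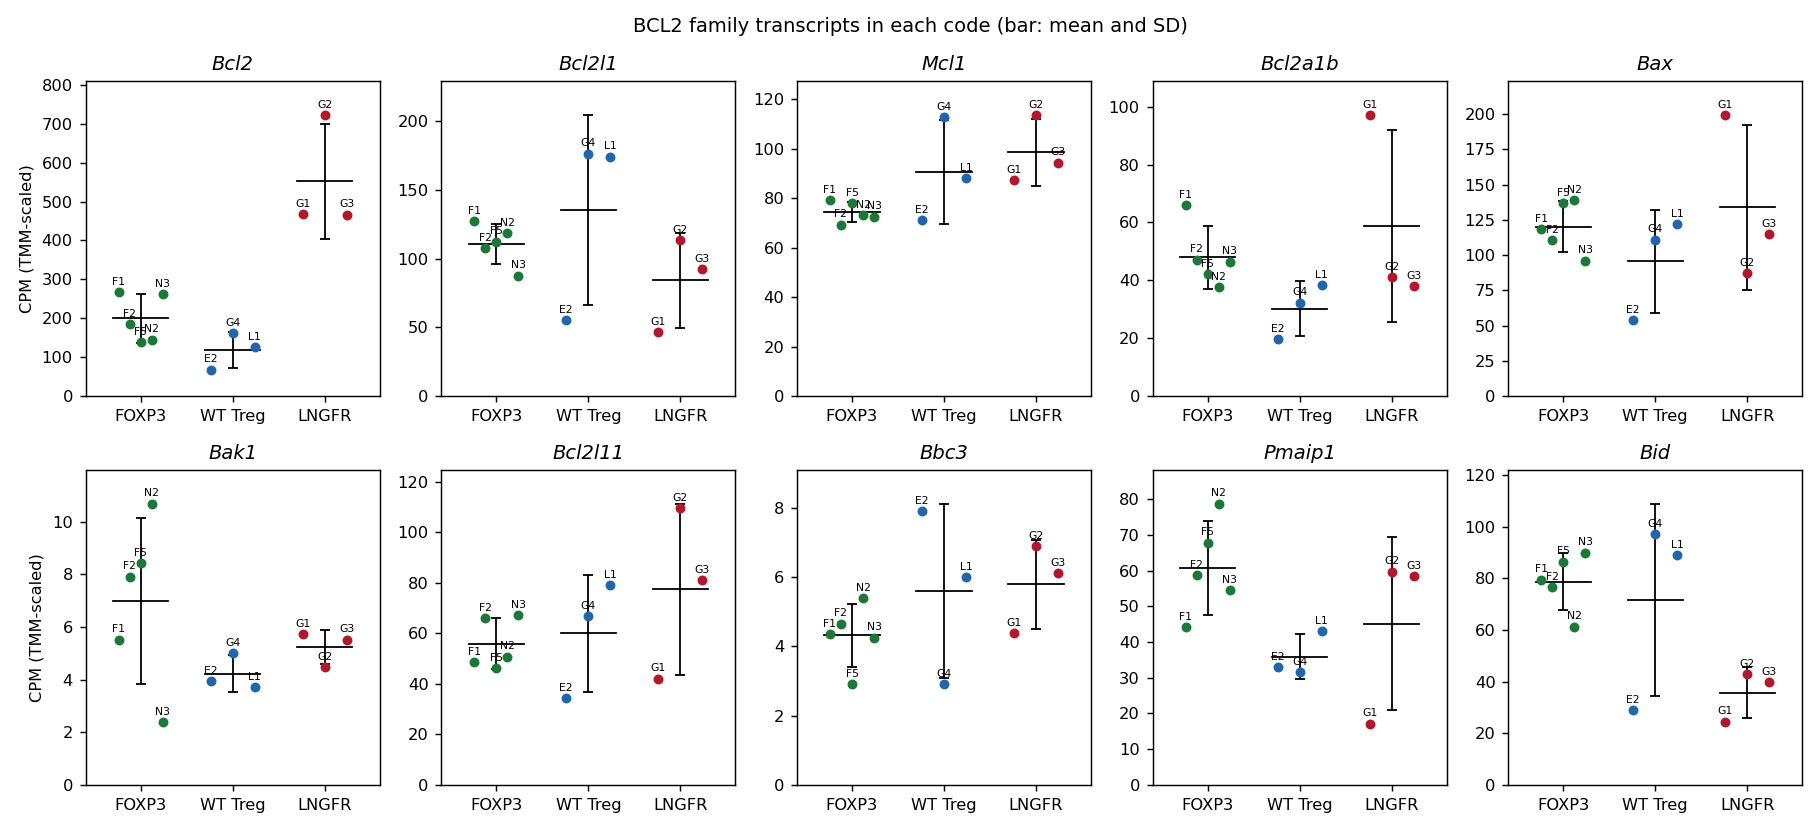
CPM of each gene (vertical axis, linear, from 0) by group (horizontal axis), with 1 labelled point per code and a bar for mean and SD. All 3 LNGFR codes of Bcl2, at 466 CPM or more, lie above the FOXP3 codes, at 267 CPM or less, and the WT Treg codes, while Bid in LNGFR codes, at 42.9 CPM or less, lies below all FOXP3 codes.

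The guardian Bcl2l1, which encodes Bcl-xL, had 127, 107, 112, 118 and 87.8 CPM in the FOXP3 codes F1, F2, F5, N2 and N3. WT Treg codes E2, G4 and L1 had 55.3, 176 and 174 CPM, and LNGFR codes G1, G2 and G3 had 46.4, 114 and 92.7 CPM. The lowest values in WT Treg and LNGFR came from E2 and G1, which hold the weak libraries, and all 3 groups overlapped. In G1 both libraries were low, with 57.7 and 33.5 CPM, so its low Bcl2l1 did not come from the weak library alone. Log2 fold changes were 0.39 ± 0.38 in FOXP3 against LNGFR (adjusted p 0.748), 0.70 ± 0.42 in WT Treg against LNGFR (adjusted p 0.446) and -0.31 ± 0.37 in FOXP3 against WT Treg (adjusted p 0.721). With codes E2, G1 and N3 left out, edgeR called Bcl2l1 higher in WT Treg than in LNGFR (0.77, adjusted p 0.00583) and lower in FOXP3 than in WT Treg (-0.60, adjusted p 0.0107).

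Mcl1, a short-lived guardian that T cells need at most stages, lay within a narrow range. It had 69.4 to 79.4 CPM over the 5 FOXP3 codes, 71.1, 113 and 88.3 CPM in WT Treg codes E2, G4 and L1, and 87.4, 114 and 94.5 CPM in LNGFR codes G1, G2 and G3. Every FOXP3 code lay below every LNGFR code, by a log2 fold change of -0.40 ± 0.23 that did not pass the test (adjusted p 0.597 in edgeR). It passed in edgeR in 1 of 20 alternatives, without E2, G1 and N3, at -0.48 and an adjusted p of 0.0428. In that fit 1565 of 14688 genes passed. WT Treg codes overlapped both other groups, with -0.11 ± 0.26 against LNGFR.

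Bcl2a1b encodes a copy of A1, a guardian induced by activation in lymphocytes. It had 66.1, 47.2, 42.3, 37.7 and 46.5 CPM in the FOXP3 codes, 19.7, 32.3 and 38.4 CPM in WT Treg codes E2, G4 and L1, and 97.2, 41.1 and 38.1 CPM in LNGFR codes G1, G2 and G3. The LNGFR mean of 58.8 CPM rested on G1, and the 3 groups overlapped. In G1 the first library had 134 CPM and the weak one 2.39 CPM. WT Treg against LNGFR gave -0.91 ± 0.39 with an adjusted p of 0.300 in edgeR, and -0.35 without G1.

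Mouse A1 has near-identical copies, which is why the opening of the coding sequence is printed for 3 of them. Of 519 coding bases, Bcl2a1b and Bcl2a1d differ at 6, Bcl2a1b and Bcl2a1a at 11, and Bcl2a1a and Bcl2a1d at 7. Reads in these libraries were 38 bases long, and 84.5% of the 38-base windows of Bcl2a1b recur in other transcripts, against 85.6% for Bcl2a1d. Counts of single copies are uncertain for that reason. The lines give coding bases 1 to 38 (GENCODE M21), and capitals mark the positions at which the 3 copies are not all the same, 5 of 12 such positions in all.
Bcl2a1a: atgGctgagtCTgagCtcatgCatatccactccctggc
Bcl2a1b: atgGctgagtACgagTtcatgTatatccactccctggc
Bcl2a1d: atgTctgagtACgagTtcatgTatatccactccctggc

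The copy Bcl2a1d was the only other gene of the family that passed the test in any of the 3 comparisons. It averaged 8.88 ± 4.37 CPM in WT Treg (SD, n = 3) and 35.3 ± 17.4 CPM in LNGFR (n = 3), a log2 fold change of -1.84 ± 0.40 with an adjusted p of 0.0396 in edgeR. That call held in 8 of 20 alternatives. It was lost when any code other than FOXP3 code N3 was left out, with -2.05 to -1.37 and adjusted p-values of 0.0526 to 0.171 in those 10 fits, and when both groups were fitted alone (0.176) or weak libraries were dropped (0.0735). FOXP3 codes lay between, at 19.5 ± 3.47 CPM over 5 codes, without overlap with either group, and neither difference passed (adjusted p 0.364 against LNGFR and 0.174 against WT Treg). The B cell and plasma cell markers that were lower in WT Treg than in LNGFR, given beside Bcl2, accompany this difference too, and their part in it was not tested. How reads common to both copies were divided is unknown, so the split between Bcl2a1b and Bcl2a1d cannot be read from these counts.

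The pore former Bax had 96.1 to 139 CPM in FOXP3 codes, 54.0, 111 and 122 CPM in WT Treg codes E2, G4 and L1, and 199, 87.4 and 115 CPM in LNGFR codes G1, G2 and G3. The extremes were again the codes with weak libraries, and the groups overlapped. Its log2 fold changes were -0.15 ± 0.33 in FOXP3 and -0.46 ± 0.37 in WT Treg against LNGFR, and both changed sign when E2, G1 and N3 were left out (0.32 and 0.21). Bak1, the second pore former, was low throughout, at 5.52, 7.91, 8.41, 10.7 and 2.40 CPM in FOXP3 codes F1, F2, F5, N2 and N3, at 3.73 to 5.01 CPM in WT Treg codes and at 4.48 to 5.72 CPM in LNGFR codes. N3 was the lowest of all 11 codes and N2 the highest. Bak1 in FOXP3 against WT Treg gave 0.71 ± 0.47 (adjusted p 0.500). Per kilobase of exon, Bax averaged 76.3 CPM and Bak1 2.90 CPM in FOXP3 codes, so Bax was the main pore-former transcript. The same held in WT Treg (60.7 and 1.76 CPM per kilobase) and LNGFR (84.9 and 2.18 CPM per kilobase). Of 38-base windows, 19.2% of those in Bak1 recur in Ggnbp1 and 10.1% of those in Bax in other transcripts, so both levels carry that uncertainty.

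Bid is a BH3-only protein that is cleaved downstream of death receptors and joins them to mitochondria. Bid had 79.5, 76.5, 86.5, 61.3 and 89.9 CPM in FOXP3 codes F1, F2, F5, N2 and N3. WT Treg codes E2, G4 and L1 had 29.0, 97.2 and 89.0 CPM, and LNGFR codes G1, G2 and G3 had 24.5, 42.9 and 39.8 CPM. Every FOXP3 code lay above every LNGFR code, and so did WT Treg codes other than E2, whose libraries were weak. FOXP3 against LNGFR gave a log2 fold change of 1.13 ± 0.35 with an adjusted p of 0.213 in edgeR, and WT Treg against LNGFR gave 1.03 ± 0.39 with an adjusted p of 0.252. Neither passed. Without the 3 weak libraries both passed in edgeR, at 1.04 (adjusted p 0.0351) and 1.29 (adjusted p 0.0233). That fit drops all of E2, the WT Treg code with Bid in the LNGFR range, and keeps G4 and L1. In it 250 and 318 of 15362 genes passed. FOXP3 and WT Treg differed by 0.10 ± 0.34. N3, with the highest B cell marker sum (8802 CPM), also had the highest Bid level of the FOXP3 codes. Of 12 B cell markers, 10 were above 0 in FOXP3 against LNGFR and 1, Ighm, in WT Treg against LNGFR. The part of B cell RNA in these Bid levels was not tested. Bid overlaps Bcl2l13 on the opposite strand, 16.7% of its 38-base windows are shared with it, and the sources used here do not state the strand setting of the counting. Bcl2l13 itself ran from 61.5 to 70.5 CPM in FOXP3 codes and from 40.8 to 85.6 CPM in WT Treg codes. In LNGFR codes it ran from 15.5 (G1) to 70.2 CPM, so the groups overlapped.

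Bcl2l11 encodes Bim, a BH3-only protein known to limit lymphocyte number. It had 48.5, 66.1, 46.3, 50.7 and 67.3 CPM in FOXP3 codes F1, F2, F5, N2 and N3, 34.2, 66.8 and 79.0 CPM in WT Treg codes E2, G4 and L1, and 42.0, 109 and 80.9 CPM in LNGFR codes G1, G2 and G3. Codes E2 and G1 were lowest, and the groups overlapped. In G1 the first library had 46.5 CPM and the weak one 59.8 CPM, so its low value did not come from the weak library. FOXP3 against LNGFR gave -0.48 ± 0.33 (adjusted p 0.669 in edgeR), which became -0.85 with an adjusted p of 0.00745 without E2, G1 and N3 and -0.036 without G2. With limma-voom and quality weights, fitted to all 11 codes, Bcl2l11 passed too, at -0.78 and an adjusted p of 0.0391. Of all genes, 1565 of 14688 passed without E2, G1 and N3, and 1033 of 15462 with limma-voom. WT Treg against LNGFR gave -0.34 ± 0.38 (adjusted p 0.705).

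Pmaip1 encodes Noxa, which binds Mcl1 and speeds its loss. It had 44.2, 58.7, 67.8, 78.8 and 54.4 CPM in the FOXP3 codes and 32.9, 31.5 and 43.1 CPM in WT Treg codes E2, G4 and L1. LNGFR codes G1, G2 and G3 had 17.1, 59.7 and 58.4 CPM. Every FOXP3 code lay above every WT Treg code, though the nearest pair, F1 and L1, were 44.2 and 43.1 CPM, and the log2 fold change of 0.75 ± 0.37 did not pass (adjusted p 0.338 in edgeR). LNGFR codes lay on both sides of the WT Treg codes and overlapped FOXP3. Bbc3 encodes Puma, a p53 target. It was low, at 2.91 to 5.40 CPM in FOXP3 codes, 2.91 to 7.90 CPM in WT Treg codes and 4.37 to 6.88 CPM in LNGFR codes, and its largest difference was -0.43 ± 0.41 in FOXP3 against LNGFR (adjusted p 0.740).

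Promoter windows were matched for 9 of the 10 genes, 14 windows in all. The forkhead motif was present in 1 window each of Bcl2l11 and Bbc3, and these are printed because Foxo factors, which are forkhead proteins, are known to act on both genes. An E-box was found in Bax and Bbc3, the AP-1 motif in Bcl2a1b, and no member window held the STAT or CRE motif. Of the 14 windows, 2 held the forkhead motif, 2 the E-box and 1 the AP-1 motif. Of all 32851 windows, 3.65%, 7.15% and 7.81% did, and no excess was tested. Windows of 1 gene can overlap, as chr7:16310011-16310310 and chr7:16310181-16310480 of Bbc3 do. In the lines below, capitals mark TGTTTAC or its reverse complement, whose first base lies at -227 of the start in Bcl2l11 (chr2:128125788-128126087, plus strand) and at -167 in Bbc3 (chr7:16310011-16310310, plus strand), both from RefSeq on GRCm38.p6. A match is a description of letters in a window and shows no binding.
Bcl2l11 start: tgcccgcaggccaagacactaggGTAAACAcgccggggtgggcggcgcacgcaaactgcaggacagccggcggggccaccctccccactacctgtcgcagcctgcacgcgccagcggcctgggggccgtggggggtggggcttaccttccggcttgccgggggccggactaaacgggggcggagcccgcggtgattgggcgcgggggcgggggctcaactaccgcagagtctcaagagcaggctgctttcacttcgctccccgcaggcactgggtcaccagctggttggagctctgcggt
Bbc3 start: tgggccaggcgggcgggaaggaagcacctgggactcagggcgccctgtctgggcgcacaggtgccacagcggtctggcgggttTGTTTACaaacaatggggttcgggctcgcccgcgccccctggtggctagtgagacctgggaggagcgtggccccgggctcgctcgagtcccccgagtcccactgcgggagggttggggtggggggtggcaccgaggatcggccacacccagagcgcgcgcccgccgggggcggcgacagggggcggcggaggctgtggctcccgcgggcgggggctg

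Counted over the family, 0 of the 10 genes passed the test in FOXP3 against LNGFR, where 0.543% of all genes did, and 3 of 10 had codes that did not overlap (Bid higher, Bcl2 and Mcl1 lower), where 9.02% of all genes did not. At an unadjusted p under 0.05, edgeR counted 2 of the 10 genes (Bcl2 and Bid), against 10.3% of all genes. DESeq2 with adjustment called the same 2, and 410 of all 15462 genes. In WT Treg against LNGFR, 1 of 10 passed (Bcl2, lower), where 1.30% of all genes did, and 1 of 10 had codes without overlap (Bcl2 again), where 16.6% of all genes did. At an unadjusted p under 0.05, edgeR counted 3 of the 10 (Bcl2, Bcl2a1b and Bid), against 14.8% of all genes. In FOXP3 against WT Treg, 0 of 10 passed in edgeR and in DESeq2, where 0.259% of all genes did in edgeR and 1111 of 15462 in DESeq2. There 0 of 10 had an unadjusted p under 0.05, against 16.5% of all genes. Codes did not overlap for 1 of 10 there (Pmaip1, higher), where 12.4% of all genes did not. The median log2 fold change of the 10 genes was -0.22 in FOXP3 against LNGFR, -0.31 in WT Treg against LNGFR and 0.21 in FOXP3 against WT Treg. The medians over all genes tested were -0.016, 0.079 and 0.0058. FOXP3 and WT Treg were set against the same LNGFR codes, so the 2 comparisons are not independent. Upper quartile scaling moved the median of all genes by -0.23 in FOXP3 against LNGFR and by -0.12 in FOXP3 against WT Treg.

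**Figure D2:**
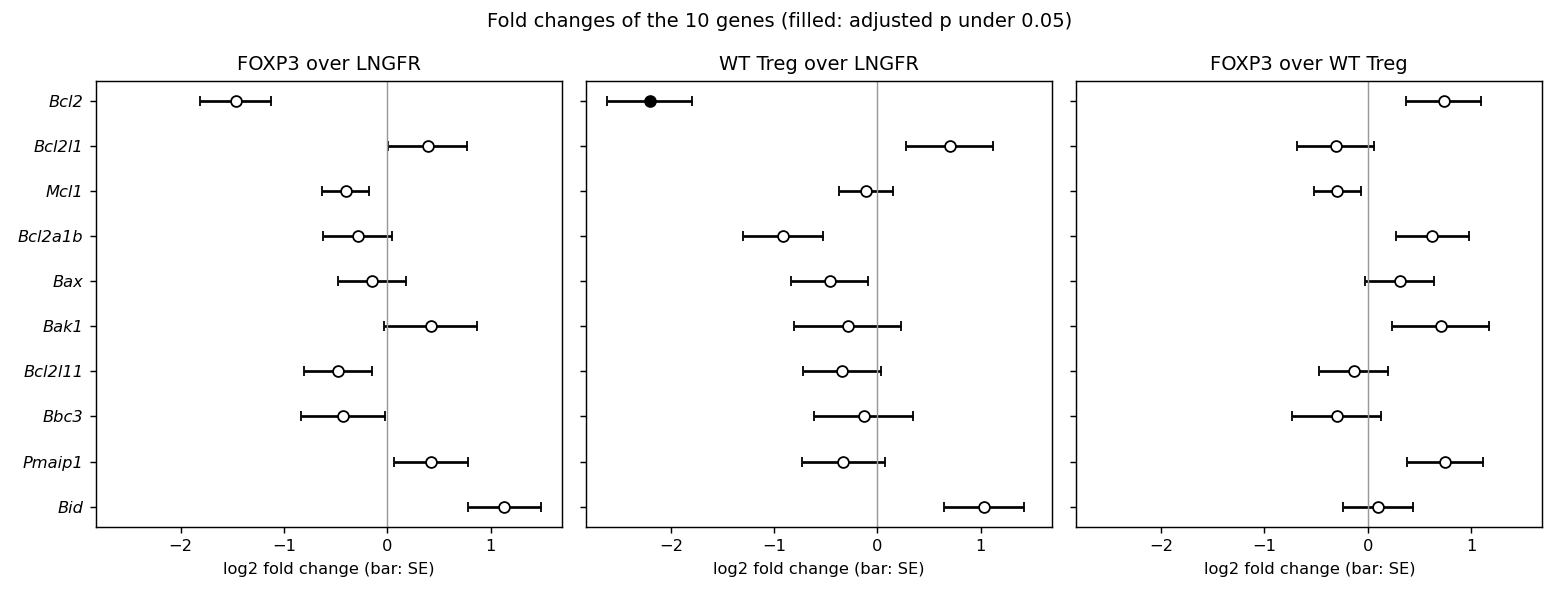
Log2 fold change (horizontal axis) of the 10 genes for 3 comparisons, with the standard error as a bar; filled points had an adjusted p under 0.05. Bcl2 in WT Treg over LNGFR, at -2.20, is the only filled point, and Bid is positive in both comparisons with LNGFR, at 1.13 and 1.03.

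Ratios within a code do not depend on library size or scaling, and were taken per kilobase of exon for comparison between genes. Exon length was that of all annotated exons of a gene, which need not be the exons used in these cells. The ratios are descriptions with no test, and how often ratios of other gene pairs separate the groups was not counted. Bcl2 alone was higher in every LNGFR code than in both other groups, so ratios with Bcl2 on top carry that difference. Bcl2 over Bcl2l11 was 4.83, 2.46, 2.63, 2.51 and 3.42 in FOXP3 codes F1, F2, F5, N2 and N3, then 1.75, 2.12 and 1.40 in WT Treg codes E2, G4 and L1, and 9.75, 5.79 and 5.05 in LNGFR codes G1, G2 and G3. The groups did not overlap, with LNGFR highest and WT Treg lowest, although F1 at 4.83 and G3 at 5.05 were close. Means were 3.17 ± 1.01 in FOXP3, 1.76 ± 0.36 in WT Treg and 6.86 ± 2.53 in LNGFR (SD, n = 5, 3 and 3).

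Bcl2 over Bcl2l1, a ratio between guardians, was 0.929 ± 0.366 in FOXP3 (0.614 to 1.50, n = 5) and 0.480 ± 0.130 in WT Treg (0.362 to 0.620, n = 3). In LNGFR it was 3.58 ± 1.31 (2.52 to 5.04, n = 3). Per kilobase, Bcl2 thus exceeded Bcl2l1 in every LNGFR code, in FOXP3 codes F1 and N3 alone, and in no WT Treg code. That reading depends on the exon lengths. On counts alone the log2 ratio was 0.29 to 1.58 in FOXP3 codes and 2.33 to 3.33 in LNGFR codes. In WT Treg codes E2, G4 and L1 the log2 count ratio was 0.31, -0.13 and -0.47. Bcl2l1 over Bcl2l11 was 3.61 ± 0.99 in FOXP3, 3.77 ± 0.90 in WT Treg and 1.92 ± 0.09 in LNGFR. The LNGFR codes, at 1.82 to 2.00, lay below the lowest FOXP3 code (N3, 2.28) and the lowest WT Treg code (E2, 2.83). This held for G1 too, at 1.93, whose separate Bcl2l1 and Bcl2l11 levels were both low. Mcl1 over Bcl2l11 overlapped between all groups, at 3.24 ± 0.71 in FOXP3, 3.82 ± 1.13 in WT Treg and 3.36 ± 1.33 in LNGFR.

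Bcl2 over Bax did not separate FOXP3 from LNGFR. It was 0.175 to 0.470 in FOXP3 codes, 0.177 to 0.251 in WT Treg codes and 0.403, 1.42 and 0.700 in LNGFR codes G1, G2 and G3, so G1 lay within the FOXP3 range while WT Treg lay below every LNGFR code. Mcl1 over Pmaip1, a guardian over the BH3-only gene that opposes it, was 0.745 to 1.44 in FOXP3 codes, 1.64 to 2.86 in WT Treg codes and 1.29 to 4.07 in LNGFR codes. Every FOXP3 code lay below every WT Treg code, and LNGFR overlapped both.

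**Figure D3:**
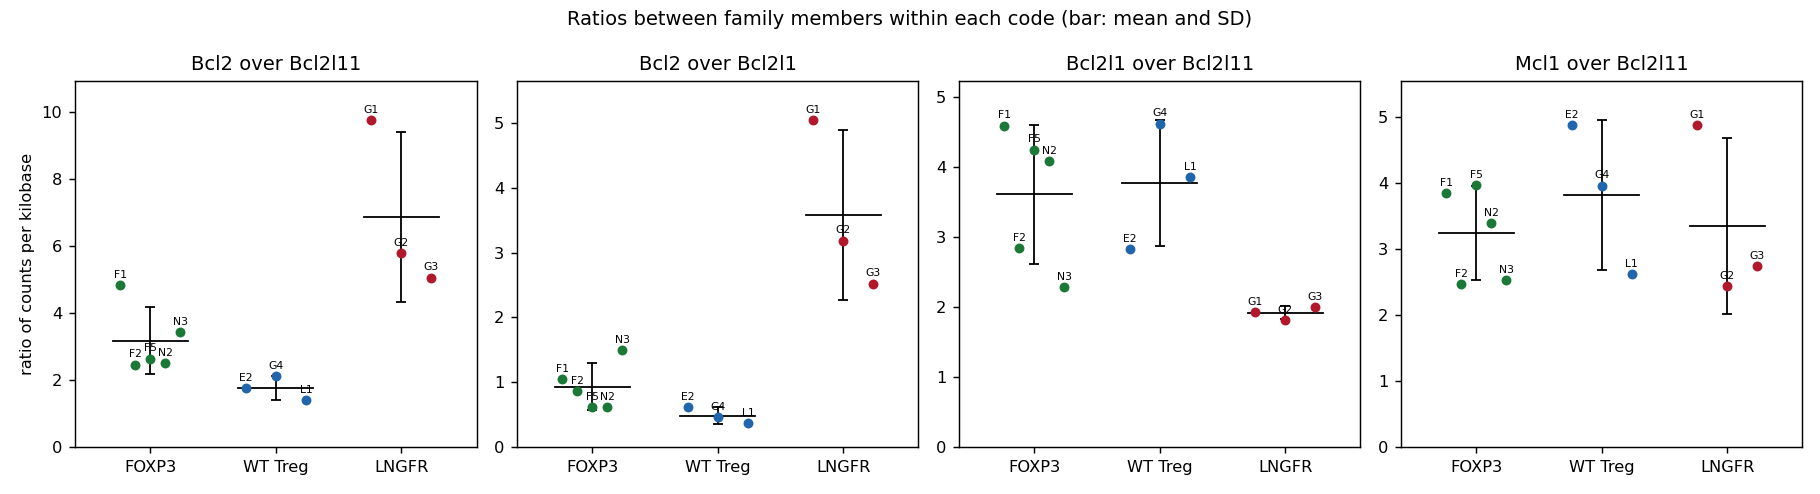
Ratio of counts per kilobase of exon between named genes within each code (vertical axis, linear, from 0) by group, with 1 labelled point per code and a bar for mean and SD. Bcl2 over Bcl2l1 is 2.52 or more in LNGFR codes and 1.50 or less in FOXP3 codes, while Mcl1 over Bcl2l11 overlaps between the 3 groups.

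Per kilobase of all annotated exons, the order of guardians differed by group, as a description that rests on those lengths. Setting aside the A1 copy, whose reads are shared, FOXP3 codes averaged 24.1 CPM per kilobase for Bcl2l1, 21.8 for Bcl2 and 21.8 for Mcl1, values within their SDs of each other. WT Treg codes averaged 29.5 for Bcl2l1, 26.5 for Mcl1 and 13.0 for Bcl2. LNGFR codes averaged 60.3 for Bcl2, 28.8 for Mcl1 and 18.4 for Bcl2l1. Among BH3-only genes, FOXP3 codes had 22.2 CPM per kilobase for Pmaip1 and 22.2 for Bid, then 6.95 for Bcl2l11 and 2.03 for Bbc3. WT Treg codes had Bid first at 20.2, then Pmaip1 at 13.1, Bcl2l11 at 7.47 and Bbc3 at 2.64. LNGFR codes had Pmaip1 first at 16.5, then Bid at 10.1, Bcl2l11 at 9.65 and Bbc3 at 2.73.

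Across the 11 codes, Bcl2l1 and Bid were the pair of members whose log2 CPM moved most closely together (r = 0.82, given with no test, over codes that share the weak libraries of E2 and G1). Without E2 it was 0.77. The genes whose pattern was most like that of Bcl2 were Kif3a, Pdcd4 and Tafa3, each with r = 0.93 among 8512 candidates. Pdcd4 averaged 310 CPM in FOXP3, 210 CPM in WT Treg and 508 CPM in LNGFR, and Kif3a, a kinesin motor subunit, 19.5, 9.76 and 68.0 CPM. Those most like Bid were Dapp1, Tnfrsf13b and Nampt, each with r = 0.96. Tnfrsf13b, which encodes the receptor TACI, averaged 123 CPM in FOXP3, 116 CPM in WT Treg and 54.0 CPM in LNGFR.

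The other genes of the death and survival pathway came from 6 lists, and of their 68 genes tested Bcl2a1d alone passed, in WT Treg against LNGFR. Of all genes, 1.30% passed in that comparison, 0.543% in FOXP3 against LNGFR and 0.259% in FOXP3 against WT Treg. Of 17 other BCL2 family genes 12 were tested. Bik, a BH3-only gene, had 1.90 ± 0.60 CPM in FOXP3 (n = 5), 1.59 ± 1.67 CPM in WT Treg (n = 3) and 9.19 ± 6.06 CPM in LNGFR (n = 3), with codes of both groups below every LNGFR code. Its log2 fold changes against LNGFR were -2.25 ± 0.60 and -2.22 ± 0.73, with adjusted p-values of 0.136 and 0.203 in edgeR, and in FOXP3 it passed in 7 of 20 alternatives. Bcl2l15 had 11.3 ± 3.84 CPM in FOXP3 and 4.50 ± 1.48 CPM in LNGFR without overlap (1.35 ± 0.39, adjusted p 0.181).

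Of 14 caspase, apoptosome and inhibitor-of-apoptosis genes none passed in edgeR in any comparison. Birc5 encodes survivin, which also acts in mitosis. It had 139 ± 68.3 CPM in FOXP3, 48.9 ± 26.4 CPM in WT Treg and 48.3 ± 33.9 CPM in LNGFR, and the cell-cycle sum was highest in the same FOXP3 group, N3 excepted. Median log2 fold changes of the 14 genes were 0.35, 0.16 and 0.22 in FOXP3 against LNGFR, WT Treg against LNGFR and FOXP3 against WT Treg.

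Death receptor genes, 10 tested, had medians of 0.077, 0.15 and 0.032 in the same order. Tnfrsf1a, a TNF receptor, had 10.5 ± 2.30 CPM in FOXP3 and 19.9 ± 1.35 CPM in WT Treg without overlap (-0.93 ± 0.27, adjusted p 0.109 in edgeR). Fasl had 12.7 ± 1.20 CPM in FOXP3, 11.5 ± 3.93 CPM in WT Treg and 21.2 ± 7.18 CPM in LNGFR. Of 13 genes of survival cytokine input, Il2ra, the high-affinity IL-2 receptor chain, had 611 ± 99.1 CPM in FOXP3, 715 ± 334 CPM in WT Treg and 276 ± 47.1 CPM in LNGFR, with all codes of both groups above LNGFR (1.15 ± 0.36, adjusted p 0.221, and 1.38 ± 0.40, adjusted p 0.141), and each difference passed in 6 of 20 alternatives. WT Treg cells were sorted as CD25+, the product of Il2ra, before transfer. Pim2, a survival kinase, had 57.3 ± 4.84 CPM in FOXP3, 32.8 ± 19.5 CPM in WT Treg and 92.6 ± 29.6 CPM in LNGFR, and did not pass (adjusted p 0.141 in WT Treg against LNGFR).

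Genes that control Mcl1 turnover and Bim, 9 of 10 tested, included none that passed. Foxo3, a forkhead activator of Bim in lymphocytes, had 36.5 ± 6.29 CPM in FOXP3, 46.7 ± 12.3 CPM in WT Treg and 39.4 to 49.8 CPM over the 3 LNGFR codes. Huwe1, a ligase that marks Mcl1 for breakdown, had 232 ± 42.3 CPM in FOXP3, 273 ± 50.9 CPM in WT Treg and 185 ± 78.7 CPM in LNGFR. Of 12 genes of p53 and its targets 11 were tested and none passed. Trp53inp1 had 110 ± 22.1 CPM in FOXP3, 116 ± 18.8 CPM in WT Treg and 56.4 ± 23.1 CPM in LNGFR without overlap against LNGFR (adjusted p 0.258 and 0.207 in edgeR). Cdkn1a, the p21 inhibitor of the cell cycle, had 108 ± 38.7 CPM in FOXP3, 42.9 ± 29.3 CPM in WT Treg and 110 ± 36.4 CPM in LNGFR, with WT Treg codes below both other groups (adjusted p 0.159 against FOXP3 and 0.250 against LNGFR).

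**Figure D4:**
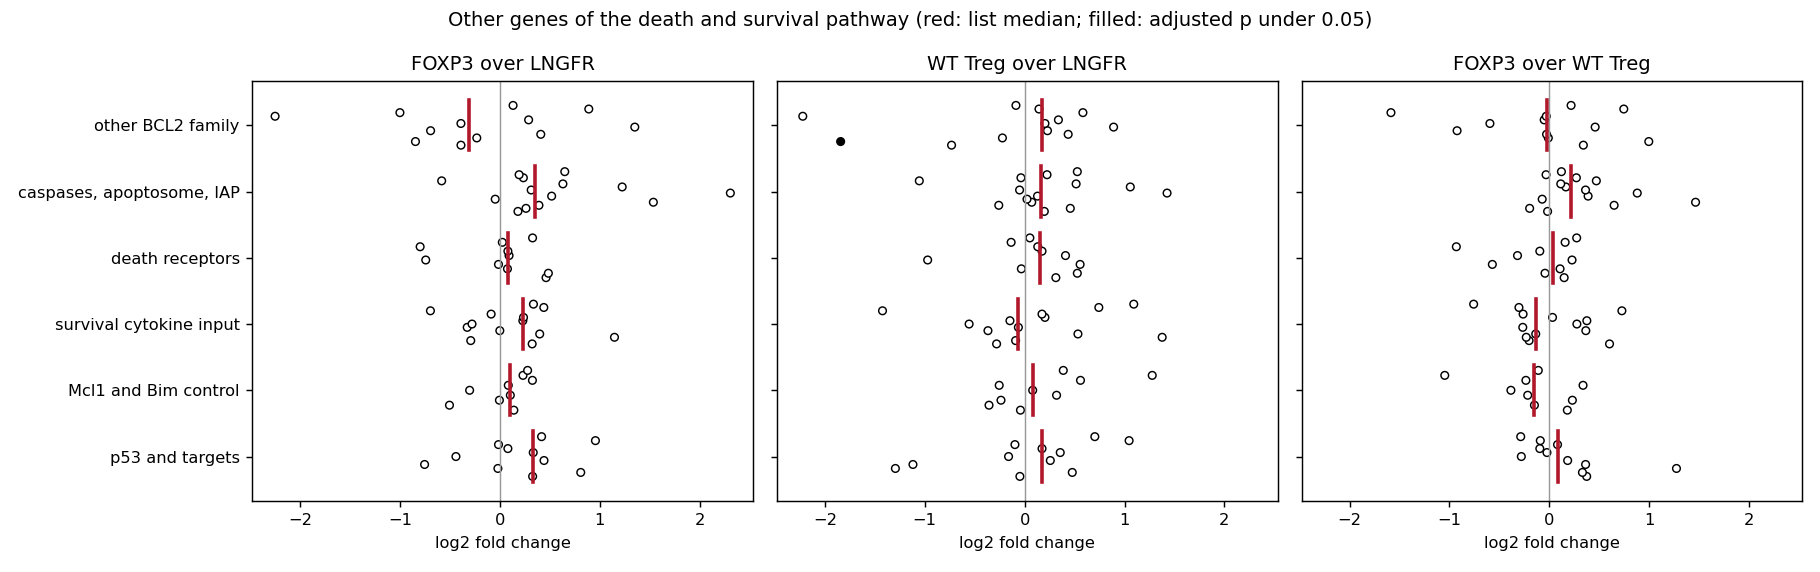
Log2 fold change (horizontal axis) of every tested gene in 6 lists of the death and survival pathway (rows) for 3 comparisons; points are genes, red lines list medians and the filled point had an adjusted p under 0.05. The filled point is Bcl2a1d in WT Treg over LNGFR at -1.84.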

How the data were processed

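Read counts per gene, as deposited by the authors, were raw whole numbers in 22 library columns. Per the submitters' processing notes, alignment and counting used STAR 2.7.3a and featureCounts (Subread 2.0.0) on the build mm10, or GRCm38. The sources used here do not state strand setting, annotation or multimapping. Per the labels' protocols, Smart-seq libraries were read as pairs of 38 bases, without molecular identifiers, so PCR copies are counted.

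The 2 libraries of a code were summed. The 3 groups were fitted in 1 model with edgeR 4.0.16 in R 4.3.3 (filterByExpr, TMM, robust quasi-likelihood), with Benjamini-Hochberg adjustment over 15462 of 55011 genes. Levels are CPM, counts scaled by TMM to libraries of 1e+06. Each SE is the absolute log2 fold change over the root of F. The spread was pooled over groups, with a common biological coefficient of variation of 0.491. Alternatives included DESeq2 1.42.0 and limma 3.58.1. Scripts were tested on simulated data.

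The members, gene lists and tests were chosen with earlier results of these data known. All 10 members are named. From the 6 pathway lists, members past the threshold and up to 3 others per comparison by smallest p could be named, and some of these are not reported here. The genes most like a member are the 3 with the highest Pearson correlation for each of the 2 members with the smallest p, among genes of at least 10 CPM on average.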

Additional observations from a re-analysis of the deposited data

How the results depend on the processing

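Over 20 alternatives to each result, Bcl2 was lower than in LNGFR by a log2 fold change of -2.55 to -1.88 in WT Treg, past the threshold in 15, and of -1.72 to -1.06 in FOXP3, past it in 9. Bid was higher in FOXP3 (0.87 to 1.41, past it in 6) and in WT Treg (0.71 to 1.38, past it in 5).

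The members that passed in FOXP3 against LNGFR, in place of 0, were 2 with DESeq2, 3 with limma-voom with quality weights, 1 with upper quartile scaling, 1 with only both groups fitted, 2 when weak libraries were dropped, 4 without E2, G1 and N3, and 2 with libraries as samples and code as a random block. With 1 code left out, 0 to 2 passed. In FOXP3 against WT Treg the count was 1 without E2, G1 and N3. In WT Treg against LNGFR, in place of 1, it was 2 with limma-voom, 0 with both groups alone, 2 without weak libraries, 3 without E2, G1 and N3, 2 with libraries as samples, and 0 to 2 with 1 code left out.

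All genes that passed in FOXP3 against LNGFR were 84, and 410 with DESeq2, 1033 with limma-voom, 329 without a filter on low counts, 184 with both groups alone, 250 without weak libraries, 1565 without E2, G1 and N3, 472 with libraries as samples, and 14 (without G2) to 273 (without N3) with 1 code left out. In FOXP3 against WT Treg they were 40, and 1111 with DESeq2, 1049 with limma-voom, 63 with RLE size factors, 76 with upper quartile scaling, 3615 without a filter, 135 with both groups alone, 66 without weak libraries, 1090 without E2, G1 and N3, 387 with libraries as samples, and 4 (without L1) to 1230 (without G4) with 1 code left out. In WT Treg against LNGFR they were 201, and 766 with DESeq2, 870 with limma-voom, 1000 without a filter, 58 with both groups alone, 318 without weak libraries, 1125 without E2, G1 and N3, 545 with libraries as samples, and 37 (without L1) to 299 with 1 code left out.

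None of the log2 fold changes below passed the threshold where its sign changed. Bad in WT Treg against LNGFR was -0.73, and 0.035 with limma-voom, 0.026 without E2, G1 and N3. Bax in FOXP3 against LNGFR was -0.15, and 0.27 with limma-voom, 0.089 without a filter, 0.32 without E2, G1 and N3, 0.062 with libraries as samples, -0.22 to 0.25 with 1 code left out. Bax in WT Treg against LNGFR was -0.46, and 0.14 with limma-voom, 0.21 without E2, G1 and N3. Bbc3 in FOXP3 against WT Treg was -0.30, and -0.46 to 0.023 with 1 code left out. Bbc3 in WT Treg against LNGFR was -0.13, and -0.38 to 0.10 with 1 code left out. Bcl2a1b in FOXP3 against LNGFR was -0.29, and 0.17 with limma-voom, 0.28 without E2, G1 and N3, -0.41 to 0.28 with 1 code left out. Bcl2l1 in FOXP3 against WT Treg was -0.31, and -0.66 to 0.038 with 1 code left out. Bcl2l11 in FOXP3 against WT Treg was -0.14, and 0.032 without a filter, -0.39 to 0.22 with 1 code left out. Bcl2l11 in WT Treg against LNGFR was -0.34, and -0.65 to 0.0093 with 1 code left out. Bid in FOXP3 against WT Treg was 0.10, and -0.18 with limma-voom, -0.25 without weak libraries, -0.30 without E2, G1 and N3, -0.025 with libraries as samples, -0.24 to 0.49 with 1 code left out. Huwe1 in FOXP3 against LNGFR was 0.32, and -0.11 without E2, G1 and N3. Mcl1 in FOXP3 against WT Treg was -0.29, and -0.43 to 0.071 with 1 code left out. Mcl1 in WT Treg against LNGFR was -0.11, and -0.38 to 0.060 with 1 code left out. Zmat3 in FOXP3 against WT Treg was -0.29, and -0.49 to 0.058 with 1 code left out. The cause of these changes was not tested.

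Groups of 3 codes and the weak libraries of E2 and G1 limit precision, and intervals on counts would cover counting error only. Removing the filter moved the median of all genes by -0.20, 0.10 and -0.43 in FOXP3 against LNGFR, WT Treg against LNGFR and FOXP3 against WT Treg. Where 1 LNGFR or WT Treg code was left out, 2 remained, and edgeR pooled the spread over the groups. No paired analysis was possible because the codes are not shared between groups.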
